A study of Mus musculus with 8 samples.

Results

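Naive pluripotency, the state of the early epiblast and of mouse embryonic stem cells, is held by a small network of transcription factors, and fetal germ cells express part of that network and then switch it off. Expression was compared for 10 genes of this network and of the Dppa group: Esrrb, Klf2, Klf4, Klf5, Zfp42, Tfcp2l1, Tcl1, Dppa2, Dppa4 and Dppa5a. They were taken by gene name, and all 10 were found among the 23694 distinct gene names of the female table and the 23409 of the male table. Where a gene had more than 1 entry in a table, the entry with the highest mean was used.

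The study asked what germ cells of the mouse fetus need Snf5 for, which is encoded by Smarcb1 and belongs to the core of SWI/SNF, a complex that remodels chromatin. RNA-Seq gave 8 libraries from germ cells at embryonic day 15.5 (E15.5), with 2 in each group formed by sex and genotype (control or Snf5 CKO). Snf5 CKO embryos carried a floxed and a deleted Snf5 allele (Snf5 fx/Δ) together with TNAP-Cre, a Cre knocked into Alpl that is active in primordial germ cells. The controls mixed cells of 3 genotypes, namely Snf5 fx/+ without Cre, Snf5 fx/+ that also had TNAP-Cre, and Snf5 fx/Δ without Cre, so some control cells had a single working allele and some carried the Cre. All embryos carried Oct4-EGFP, a fluorescent reporter driven by the promoter of Pou5f1, and cells were sorted by it. The labels give the strain background as C57BL/6, while the methods of the study describe a mixed background. Cells of more than 1 embryo were pooled in all but a single library, male Snf5 CKO replicate 2, which came from a lone embryo. Recombination of the floxed allele was incomplete, and the study estimated a higher efficiency in male than in female germ cells. The part of this in the differences between the sexes below was not tested. Cre removes only exon 1, so that transcripts of the remaining exons still count towards Smarcb1. Each sex was quantified in a run of its own, and for that reason levels are compared within a sex only, and effects between sexes only through the difference of the changes.

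ESRRB, the KLF factors and TFCP2L1 bind and activate one another's genes and those of NANOG and OCT4, and several of them can maintain naive stem cells in the place of LIF signalling. ZFP42, also called REX1, is a widely used marker of that state rather than a factor it requires, and TCL1 is a coactivator of the kinase AKT. DPPA2 and DPPA4 form a heterodimer that binds chromatin and keeps developmental promoters poised, and DPPA5A is an RNA-binding protein with a KH domain. In germ cells of the fetal gonad, pluripotency genes are normally silenced as females enter meiosis and as males stop dividing.

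The level is given in FPKM, fragments scaled by transcript length and by mapped fragments, so that levels can be set beside each other between genes of the same table. Smarcb1 (chr10:75896769-75921614, mm10) was at 23.4 and 22.3 FPKM in the female controls and at 4.24 and 2.47 FPKM in female Snf5 CKO. Male controls had 141 and 167 FPKM, and male Snf5 CKO 8.73 and 10.1 FPKM. In each sex both Snf5 CKO libraries lay far below both controls, and none was at 0. The fold change is given throughout as the difference of mean log2(FPKM + 1) between Snf5 CKO and control, which understates changes of genes near 0 FPKM, and a gene was called at a Benjamini-Hochberg adjusted p under 0.05 if its log2 fold change was 1 or more in size. Smarcb1 was called lower in females (log2 fold change -2.48, SE 0.24, adjusted p = 0.00029) and in males (-3.90, SE 0.18, adjusted p = 0.0022). Without moderation of the variances the female adjusted p was 0.056, the highest of its alternatives, whose lowest was 2.3e-05. With 2 libraries a group, the smallest p that exact permutation (two-sided) can give any gene is 0.333, and the adjusted p-values here rest on variances shared across genes, and they measure only the spread between these samples. The decrease of Smarcb1 differed between the sexes by 1.41 on the log2 scale (SE 0.31, adjusted p = 0.0086).

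Germ cell markers were checked next. All 8 genes of the list were detected in every library, and their summed level in females was 3287 and 3459 FPKM in controls against 1856 and 1843 FPKM in Snf5 CKO. In males the sums were 3437 and 3620 FPKM against 2349 and 2192 FPKM. Ddx4, an RNA helicase that marks germ cells after they reach the gonad, was at 363 and 296 FPKM in the female controls and at 249 and 203 FPKM in female Snf5 CKO. In males Ddx4 was at 565 and 458 FPKM against 299.9 and 237 FPKM. Dazl, an RNA-binding protein of the germline and the most abundant marker of the list in males, was between 606 and 997 FPKM in the 4 male libraries and was not called in either sex, and neither was Ddx4. Among the 8 markers, 4 were called higher and 2 lower in females, and 1 was called higher and 3 lower in males. Of all tested genes, 17.2% were called higher and 21.8% lower in females and 14.3% and 17.5% in males, and the counts of each list below are to be read beside these shares. The most abundant marker in females was Tex101, with 1452 and 1599 FPKM in the controls and 158 and 216 FPKM in Snf5 CKO. Most of the fall of the female sum was in this gene. Pou5f1 (chr17:35506032-35510777, mm10), which encodes OCT4 and whose promoter drives the sorting reporter, was at 8.63 and 16.7 FPKM in the female controls and at 295 and 333 FPKM in female Snf5 CKO, a log2 fold change of 4.59 (SE 0.29, adjusted p = 0.00011). In males it was at 399 and 436 FPKM in the controls and at 620 and 648 FPKM in Snf5 CKO and was not called (0.60, SE 0.24, adjusted p = 0.094). The gene behind the sorting reporter was thus far lower in both female controls than in both female Snf5 CKO libraries, and its change differed between the sexes by 3.99 (SE 0.39, adjusted p = 0.00046).

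Markers of other gonadal cells were present at lower levels, and some moved with the genotype. Sertoli cell markers summed to 151 and 120 FPKM in the male controls and to 636 and 972 FPKM in male Snf5 CKO, and 7 of the 7 tested of 8 were called higher there, with Cst9 the most abundant. In females the same list summed to 9.82, 11.5, 14.1 and 15.4 FPKM over control and then Snf5 CKO libraries, 1 of the 2 tested was called higher, and the most abundant was Aard. Dhh and Cst9 of this list were at 0 in both female controls, and Ptgds was at 0 in some female library. For pre-granulosa cells, the female sums were 6.74 and 10.1 FPKM in controls and 30.2 and 25.6 FPKM in Snf5 CKO, with 3 of 7 tested called higher, all 7 higher at an unadjusted p under 0.05, and Fst the most abundant. The male sums of that list were 9.37 and 8.39 FPKM in controls and 43.6 and 48.2 FPKM in Snf5 CKO, with 3 of 4 tested called higher, Wnt6 the most abundant and the defining gene Foxl2 at 0 in a control. Sums of these supporting-cell markers were thus higher in the Snf5 CKO libraries of both sexes, and within males those of Sertoli genes were the larger. The female Sertoli rise was that of Aard, from 2.72 and 4.35 FPKM in controls to 9.63 and 10.3 FPKM in Snf5 CKO. The rest of that list summed to less in female Snf5 CKO than in female controls. Genes were tested if their mean was at least 1 FPKM. A marker under 1 FPKM in either group could pass through the other group alone, and then had to differ. The counts of calls in marker lists with low sums are therefore no support for a change. Leydig cell markers moved down in males, from 85.7 and 58.2 FPKM to 19.2 and 15.1 FPKM, with 3 of 5 tested called lower, and their most abundant entry was Insl3, which is merged with Jak3 in the tables. In females the Leydig list summed to 4.74, 4.89, 12.0 and 11.8 FPKM, with 1 of 2 tested called higher, and Cyp11a1 and Cyp17a1 were at 0 in a control.

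The remaining lists were stromal, endothelial and blood cell markers. Stromal markers, led by Col3a1, summed to 13.9, 6.30, 4.17 and 5.31 FPKM in females, where 1 of 2 tested was called lower. In males they summed to 22.6, 11.9, 4.68 and 3.21 FPKM, and 3 of 4 tested were called lower. Endothelial markers, led by Plvap, summed to 6.00, 7.42, 7.52 and 12.1 FPKM in females, with 0 of 2 tested called, also at an unadjusted p under 0.05. Their male sums were 83.0 and 109 FPKM in controls and 28.5 and 41.5 FPKM in Snf5 CKO, with 1 of 4 tested called higher and 2 lower. Nearly all of this fall was in Plvap, at 65.5 and 85.7 FPKM in male controls and 11.6 and 18.35 FPKM in male Snf5 CKO. Tie1 and Emcn were at 0 in some male library, as were Cdh5, Tie1 and Emcn in some female library. Blood markers, led by Hbb-bs, followed the replicate number in females rather than the genotype, with 20.4 and 5.34 FPKM in the replicates 1 and 96.7 and 86.6 FPKM in the replicates 2. In males the blood sums were 59.0 and 101 FPKM in controls and 54.9 and 66.3 FPKM in Snf5 CKO, and blood calls were 0 of 5 tested in females (1 higher at an unadjusted p under 0.05) and 1 of 7, lower, in males. Of the 9 blood genes 7 have an entry in the female table and 8 in the male table, and Hbb-y and Ptprc were at 0 in some library of each sex, as was Alas2 in females. No gene of the 7 marker lists that has an entry was at 0 in all libraries of a table. The part of any of these cells in the results that follow was not tested.

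**Figure D1:**
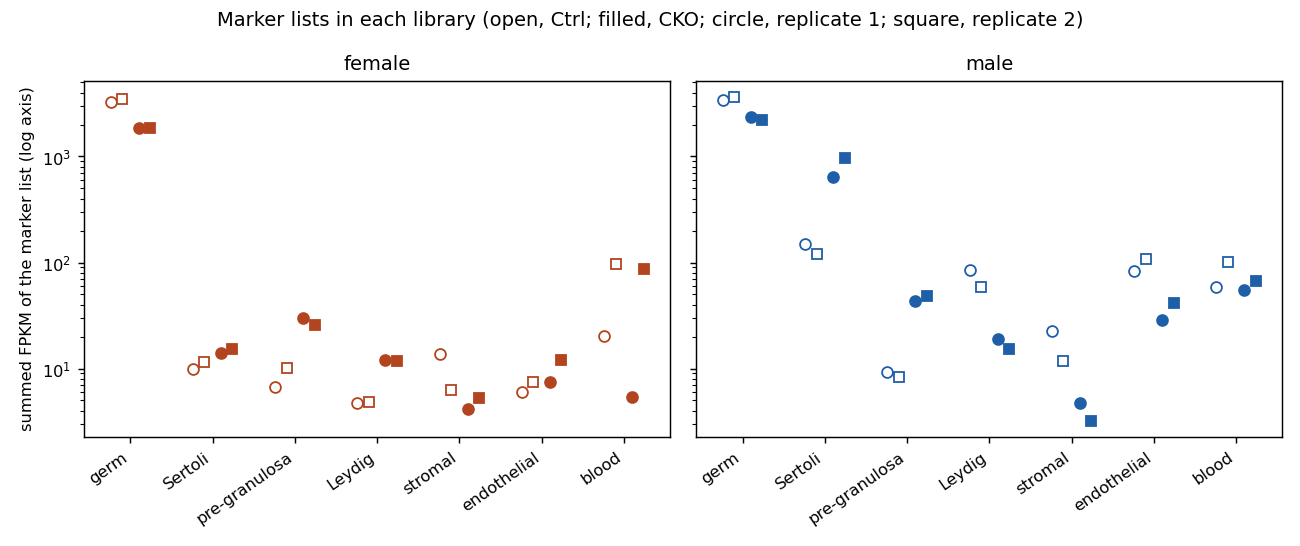
Summed FPKM (log axis) of 7 marker lists in each library of female (left) and male (right) samples, with open symbols for control, filled symbols for Snf5 CKO, circles for replicate 1 and squares for replicate 2. Germ cell markers are the highest list in all 8 libraries, and Sertoli cell markers reach 636 and 972 FPKM in male Snf5 CKO.

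In females 9 of the 10 genes passed the filter of a mean of at least 1 FPKM, and 8 of them were called higher in Snf5 CKO and 0 lower by limma (1 lower, Tfcp2l1, at an unadjusted p under 0.05), where 17.2% of all 11642 tested genes were called higher and 21.8% lower. In males all 10 were tested, and 3 were called higher and 2 lower, beside 14.3% higher and 17.5% lower of 12368 genes. The median log2 fold change was 3.38 in females and 0.50 in males, against -0.14 and -0.07 for all tested genes. A gene that passed the filter only through the group where it is high had to differ, which in females holds for Esrrb and Dppa2, whose control means were under 1 FPKM. The control and Snf5 CKO libraries did not overlap for 9 genes in each sex, 8 above and 1 below in females and 6 above and 3 below in males, where 81.5% of tested female genes and 74.4% of tested male genes did not overlap either. The change was tested for a difference between the sexes for 9 genes, of which 6 had a higher effect in females by that test and 0 a lower one (7 and 0 at an unadjusted p under 0.05), beside 17.4% higher and 18.6% lower of 10472 genes. The limit of the filter holds for this count too, since the female effects of Esrrb and Dppa2 had to be positive, and it leaves 4 others. In libraries of sorted cells, fewer cells of a type that expresses a gene and less RNA per cell cannot be told apart.

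**Figure D2:**
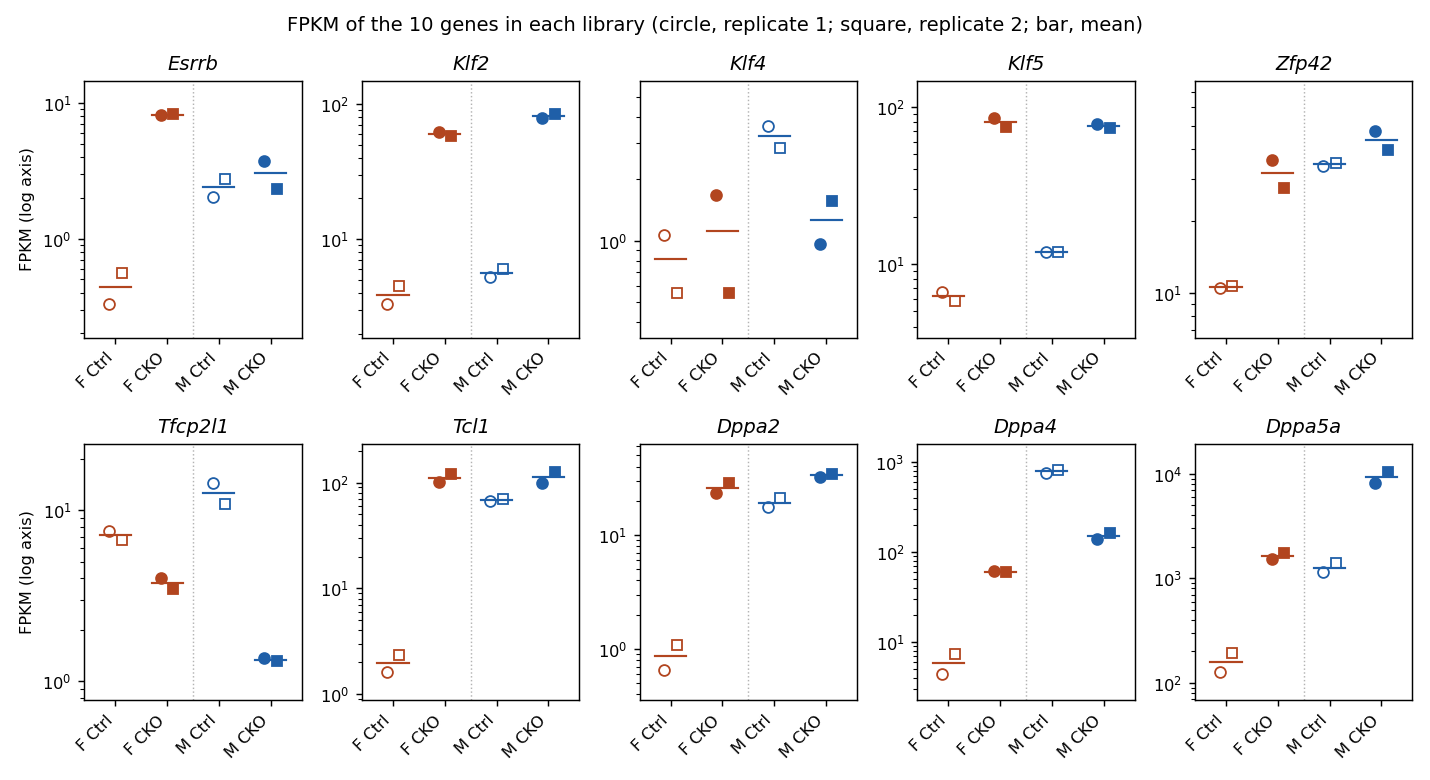
FPKM (log axis, own range in each panel) of the 10 genes in every library, with circles for replicate 1, squares for replicate 2, open symbols for control, filled symbols for Snf5 CKO and a bar at the group mean. Libraries of female Snf5 CKO stand above both female controls for 8 genes, while in males Klf4, Tfcp2l1 and Dppa4 stand below.

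Within the female controls Dppa5a was the most abundant of the 10 genes at 159 ± 45 FPKM (SD, n = 2), and Zfp42, Tfcp2l1, Klf5, Dppa4 and Klf2 followed between 10.6 and 3.90 FPKM. Tcl1, Dppa2, Klf4 and Esrrb were at 1.99, 0.866, 0.812 and 0.443 FPKM as means. The libraries of Dppa4 overlapped those of Tfcp2l1, Klf5 and Klf2, and those of Klf4 overlapped Dppa2 and Esrrb, so that the order of these neighbours is not fixed. In female Snf5 CKO the order was Dppa5a, Tcl1, Klf5, Dppa4, Klf2, Zfp42, Dppa2, Esrrb, Tfcp2l1 and Klf4, with overlap between Dppa4 and Klf2 and between Zfp42 and Dppa2. The male controls had Dppa5a at 1267 ± 181 FPKM (SD, n = 2) and Dppa4 at 796 ± 42.3 FPKM, then Tcl1, Zfp42, Dppa2, Tfcp2l1, Klf5, Klf2, Klf4 and Esrrb, with overlap between Tfcp2l1 and Klf5. In male Snf5 CKO the level of Dppa5a reached 9321 ± 1524 FPKM (SD, n = 2), followed by Dppa4, Tcl1, Klf2, Klf5, Zfp42, Dppa2 and Esrrb, and Tfcp2l1 and Klf4 were last with overlapping libraries. Counted over all named loci, Dppa5a went from places 894 and 579 in control females to 36 and 53 in their Snf5 CKO counterparts, and from places 53 and 76 in control males to 3 and 4.

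Esrrb encodes an orphan nuclear receptor that binds next to OCT4 and SOX2 sites in stem cells. At its locus (chr12:86361117-86521628, mm10, plus strand), the female controls were at 0.328 and 0.557 FPKM and female Snf5 CKO at 8.18 and 8.25 FPKM. It was close to absent in both controls and alike in both Snf5 CKO libraries, 18.6-fold higher as a ratio of means, with a log2 fold change of 2.68 (SE 0.19, adjusted p = 0.00013). In males the controls were at 2.03 and 2.76 FPKM and Snf5 CKO at 3.73 and 2.34 FPKM. These male groups overlapped, the pairs of replicates gave 0.64 and -0.17, and the gene was not called (log2 fold change 0.24, SE 0.25, adjusted p = 0.48). Without Snf5 CKO replicate 1 the male value was -0.0115. A second male entry with the same coordinates, at 0.919 and 0.509 FPKM in controls and 0.306 and 0.139 FPKM in Snf5 CKO, was set aside by the rule for several entries. With the entries summed, the male log2 fold change was 0.0303. The female effect exceeded the male effect by 2.44 (SE 0.31, adjusted p = 0.001).

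The 3 Krüppel-like factors, zinc-finger proteins that act on a shared set of stem cell targets, differed in their calls. Klf2, whose protein is stabilized when MEK is inhibited in culture, was at 3.31 and 4.48 FPKM in the female controls and at 61.7 and 57.9 FPKM in female Snf5 CKO. In males it was at 5.24 and 6.00 FPKM in the controls and at 79.1 and 83.5 FPKM in Snf5 CKO. In both sexes each control was low and each Snf5 CKO library stood far above both controls. The log2 fold change was 3.64 in females (SE 0.19, adjusted p = 0.00011) and 3.64 in males (SE 0.17, adjusted p = 0.0022). Their difference was 0.01 (SE 0.24, adjusted p = 0.98), and with a library left out it lay between -0.17 and 0.18, taking a negative sign without female control replicate 1 (-0.17), male control replicate 2 (-0.08), female Snf5 CKO replicate 1 (-0.04) or male Snf5 CKO replicate 1 (-0.03). The locus is listed as chr8:72319062-72321654 in the female table and as chr8:72311453-72321654 in the male table (mm10, plus strand), the latter starting 7580 bases before the annotated start.

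Klf5, which also supports the trophectoderm and the inner cell mass of the blastocyst, was at 6.64 and 5.84 FPKM in the female controls and at 84.9 and 74.1 FPKM in female Snf5 CKO. In males the controls were at 11.9 and 12.0 FPKM and Snf5 CKO at 77.8 and 73.3 FPKM. As for Klf2, no Snf5 CKO library came near a control. The ratio of means was 12.7 in females (log2 fold change 3.47, SE 0.17, adjusted p = 0.00011) and 6.32 in males (2.56, SE 0.16, adjusted p = 0.0022). The female effect exceeded the male by 0.91 (SE 0.20, adjusted p = 0.0097), short of the fold threshold, which it passed without female Snf5 CKO replicate 2 (1.01) and with a pseudocount of 0.1 (1.0). A common sum gave 1.15 with an adjusted p of 0.096, the highest over its alternatives, with 0.00037 the lowest. Its locus is chr14:99298691-99313409 in the female table and chr14:99298658-99315032 in the male table (mm10, plus strand).

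Klf4, known from the set of factors that reprogram fibroblasts, was not tested in females and not called in males. It was at 1.07 and 0.556 FPKM in the female controls and at 1.67 and 0.556 FPKM in female Snf5 CKO (chr4:55527137-55532475, mm10, minus strand). The female groups overlapped, and the gene fell under the filter and was not tested in females or between the sexes. Male controls were at 3.63 and 2.82 FPKM and male Snf5 CKO at 0.962 and 1.57 FPKM. Both male Snf5 CKO libraries were below both controls, with a log2 fold change of -0.91 (SE 0.23, adjusted p = 0.027) that misses the fold threshold. The threshold was passed without control replicate 2 (-1.04), without Snf5 CKO replicate 2 (-1.10), with a pseudocount of 0.1 (-1.31) and with libraries scaled to a common sum (-1.14), and the adjusted p ranged from 0.011 to 0.14 over all alternatives. At these levels, near 1 FPKM, the number of fragments behind a value is not known, since the tables give none.

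TFCP2L1 is a transcription factor of the grainyhead family and a target of LIF and STAT3 that sustains self-renewal. The gene (chr1:118627945-118685168, mm10, plus strand) was at 7.57 and 6.75 FPKM in the female controls and at 4.0 and 3.48 FPKM in female Snf5 CKO. Male controls were at 14.5 and 10.9 FPKM and male Snf5 CKO at 1.37 and 1.31 FPKM. Snf5 CKO was below control in both sexes without overlap, and in males both libraries were close to the filter limit. The male log2 fold change was -2.54 (SE 0.21, adjusted p = 0.0023), the control mean being 9.51-fold that of Snf5 CKO. Without moderation its adjusted p was 0.054, and over all alternatives it ranged from 4.4e-05 to 0.054. The female log2 fold change of -0.78 (SE 0.19, adjusted p = 0.011) was not called because of its size. The effects differed by 1.76 (SE 0.26, adjusted p = 0.0018), which makes Tfcp2l1 the gene with a lower level in Snf5 CKO of both sexes and a larger decrease in males. The locus spans 3 small annotated genes, Gm22094, Gm28882 and Gm23497, and since the reads carry no strand their fragments cannot be told from those of Tfcp2l1.

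Promoters were looked at because members of this network bind near one another's genes. Promoter entries of 250 bases before to 50 bases after the start site were found for 6 of the 10 genes, 7 entries in all since Esrrb has a pair of start sites, in the RefSeq table for GRCm38.p6 with 32851 promoters; Klf5, Dppa2, Dppa4 and Dppa5a had no entry. Both strands were searched for 7 motifs: the octamer ATGCAAAT of OCT4 (in 1.74% of all promoters), the ESRRB motif TCAAGGTCA (0.423%), the KLF motif as GGGTGTGG (3.56%) and as GGGCGTGG (5.33%), the STAT motif TTCCNGGAA (1.15%), the E-box CACGTG (7.15%) and the E2F motif TCCCGCC (11.3%). No match overlapped another. The sequences shown are those of the genes with the most matches, Tfcp2l1 (chr1:118627695-118627994, plus strand) and Zfp42 (chr8:43306960-43307259, minus strand), and of the gene with the largest female change, Tcl1 (chr12:105222688-105222987, minus strand), each 5′ to 3′ along its gene with matches in capitals.
Tfcp2l1: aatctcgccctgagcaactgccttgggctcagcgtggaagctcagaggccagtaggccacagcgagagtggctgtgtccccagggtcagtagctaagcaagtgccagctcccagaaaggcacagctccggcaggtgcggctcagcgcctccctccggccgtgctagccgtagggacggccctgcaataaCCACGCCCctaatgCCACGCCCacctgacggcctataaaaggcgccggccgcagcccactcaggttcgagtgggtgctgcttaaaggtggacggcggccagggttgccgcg
Zfp42: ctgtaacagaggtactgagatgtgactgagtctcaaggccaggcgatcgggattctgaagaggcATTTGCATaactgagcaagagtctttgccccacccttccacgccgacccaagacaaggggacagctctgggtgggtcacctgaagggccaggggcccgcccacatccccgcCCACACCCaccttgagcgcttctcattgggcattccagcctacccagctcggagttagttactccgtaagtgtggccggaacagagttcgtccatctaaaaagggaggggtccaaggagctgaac
Tcl1: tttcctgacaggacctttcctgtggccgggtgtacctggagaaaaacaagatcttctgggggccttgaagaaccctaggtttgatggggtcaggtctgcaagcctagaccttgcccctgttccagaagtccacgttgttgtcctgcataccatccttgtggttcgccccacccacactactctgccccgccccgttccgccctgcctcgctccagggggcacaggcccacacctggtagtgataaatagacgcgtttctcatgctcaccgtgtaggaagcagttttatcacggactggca
The capitals in Tfcp2l1 are the other strand of GGGCGTGG, at positions -61 and -47 from the start site. Those in Zfp42 are the other strand of the octamer, at -186, and of GGGTGTGG, at -75. The promoter of Tcl1 held no match, and neither did those of Klf2 and Esrrb, and that of Klf4 held an E-box at -182. The Klf4 and Klf2 promoters had 40 and 32 CpG dinucleotides, Tfcp2l1 21, Zfp42 and Tcl1 11 each and both Esrrb entries 7, where the median of all promoters was 7. These matches are letters in a window and say nothing on binding in these cells.

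Zfp42, whose promoter holds both an octamer and a KLF match, was at 10.5 and 10.6 FPKM in the female controls and at 36.0 and 27.4 FPKM in female Snf5 CKO. Both female Snf5 CKO libraries were well above both controls, 3.0-fold as means, with a log2 fold change of 1.49 (SE 0.19, adjusted p = 0.00087). Its adjusted p was 0.058 without moderation and between 0.00017 and 0.058 over all alternatives. In males the controls were at 34.2 and 35.3 FPKM and Snf5 CKO at 47.9 and 39.8 FPKM. The male groups did not overlap, but the change was small and not called (0.32, SE 0.18, adjusted p = 0.19). The male value lay between 0.19 and 0.45 with a library left out, and between 0.14 and 0.48 over the other alternatives. A difference between the sexes of 1.16 (SE 0.25, adjusted p = 0.0078) was called, but was under the fold threshold without female Snf5 CKO replicate 1 (0.97). A common sum gave a difference of 1.39 with an adjusted p of 0.071, the highest over its alternatives, with 0.00089 the lowest. The locus is chr8:43294144-43307009 in the female table and chr8:43295064-43307009 in the male table (mm10, minus strand).

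Tcl1 had the largest change of the 10 genes in females. The female controls were at 1.63 and 2.35 FPKM and female Snf5 CKO at 101 and 121 FPKM (chr12:105216755-105222737, mm10, minus strand). It was nearly absent from both female controls, and the Snf5 CKO mean was 55.7-fold higher, a log2 fold change of 5.23 (SE 0.20, adjusted p = 0.00011). In the male controls it was at 67.7 and 70.7 FPKM, and in male Snf5 CKO at 99.5 and 125 FPKM. The male libraries did not overlap, yet with a log2 fold change of 0.68 (SE 0.19, adjusted p = 0.039) the gene was not called. Over the alternatives that kept all libraries, the male value lay between 0.50 and 0.84. Its adjusted p in these limma fits ranged from 0.00093 to 0.33. The difference between the sexes was 4.55 (SE 0.27, adjusted p = 0.00022).

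Dppa2 and Dppa4 lie side by side on chromosome 16 on the same strand, 15.98 kb apart in the female table and 9.488 kb in the male table, and their proteins work as a pair. Dppa2 (chr16:48310274-48319513 in the female table, chr16:48303781-48319513 in the male table, mm10) was at 0.650 and 1.08 FPKM in the female controls and at 23.3 and 28.5 FPKM in female Snf5 CKO. Its annotated start is 48303908, so the female locus begins inside the gene and the male locus does not. The difference between the sexes given below for Dppa2 thus compares loci of unlike extent. Dppa4 (chr16:48283735-48294292, mm10) was at 4.43 and 7.52 FPKM in the female controls and at 61.3 and 60.9 FPKM in female Snf5 CKO. Both genes were low in each female control and high in each female Snf5 CKO library. Their female log2 fold changes were 3.85 for Dppa2 (SE 0.22, adjusted p = 0.00011) and 3.19 for Dppa4 (SE 0.24, adjusted p = 0.00015). The male values of Dppa2 were 17.6 and 21.0 FPKM in controls and 32.2 and 34.6 FPKM in Snf5 CKO. The male values of Dppa4 were 766 and 826 FPKM in controls and 142 and 165 FPKM in Snf5 CKO. In males the neighbours thus stood apart, with Dppa2 somewhat higher in both Snf5 CKO libraries and Dppa4 lower in both. Dppa2 was not called in males (0.77, SE 0.18, adjusted p = 0.022), and Dppa4 was called lower (-2.37, SE 0.22, adjusted p = 0.0027), with a control mean 5.18-fold that of Snf5 CKO. Over the alternatives that kept all libraries, the male Dppa2 value lay between 0.59 and 0.92. Its adjusted p in these limma fits ranged from 0.00057 to 0.31.

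In control males Dppa4 was among the most abundant transcripts, at ranks 105 and 145 of the named loci, and it was at ranks 689 and 687 in male Snf5 CKO. The opposite directions of Dppa4 in the sexes rest on a tested difference of 5.56 (SE 0.31, adjusted p = 0.00021), and for Dppa2 the difference was 3.08 (SE 0.27, adjusted p = 0.00035). The next tested gene beyond Dppa2, at 111.7 kb, was Morc1, which encodes a GHKL ATPase needed to silence transposons in male germ cells. Morc1 was at 6.19 and 2.53 FPKM in the female controls and at 56.2 and 63.7 FPKM in female Snf5 CKO (log2 fold change 3.59, SE 0.33, adjusted p = 0.00025). In males it was at 209 and 151 FPKM in controls and at 6.52 and 6.49 FPKM in Snf5 CKO (-4.57, SE 0.21, adjusted p = 0.0022). Morc1 therefore had the directions of Dppa4 in both sexes, and its difference between the sexes was 8.17 (SE 0.46, adjusted p = 0.00021). On the other side of Dppa4, at 1787 kb, Pvrl3 was not called in either sex.

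Dppa5a was the most abundant of the 10 genes in all 8 libraries. Its short locus (chr9:78367054-78368199, mm10, minus strand) was at 127 and 191 FPKM in the female controls and at 1523 and 1744 FPKM in female Snf5 CKO. In males the controls were at 1139 and 1395 FPKM and Snf5 CKO at 8243 and 10398 FPKM. Each Snf5 CKO library was several-fold above each control of its sex. The ratio of means was 10.3 in females (log2 fold change 3.38, SE 0.29, adjusted p = 0.00019) and 7.36 in males (2.88, SE 0.50, adjusted p = 0.0096). The male call was lost without control replicate 1 (2.73, adjusted p = 0.26), without control replicate 2 (3.02, adjusted p = 0.17), without the filter (adjusted p = 0.18) and without moderation (adjusted p = 0.055), and the adjusted p ranged from 8.8e-08 to 0.26 over all alternatives. A difference between the sexes was not called (0.50, SE 0.45, adjusted p = 0.40), and with a library left out it lay between 0.21 and 0.79. The annotated pseudogenes Dppa5b and Dppa5c, on the same chromosome, have no entry in either table and no listed locus overlaps them, so it is not known how fragments that match them were assigned.

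Beside Dppa5a, at 8.703 kb, lies Ooep, another small KH-domain gene of the same family whose protein is part of the maternal subcortical complex of the oocyte. Ooep was at 1.44 and 1.63 FPKM in the female controls and at 10.1 and 14.8 FPKM in female Snf5 CKO. In males it was at 36.6 and 52.0 FPKM in controls and at 218 and 278 FPKM in Snf5 CKO. It was higher in all Snf5 CKO libraries than in the controls of the same sex, by 2.39 in females (SE 0.23, adjusted p = 0.00029) and 2.47 in males (SE 0.25, adjusted p = 0.0030), and these effects did not differ by the test (-0.08, SE 0.34, adjusted p = 0.87). The nearest tested gene on the other side was the glutathione transferase gene Gsta4 in the female table, called higher (1.22, SE 0.32, adjusted p = 0.015), and Gsta2 in the male table, also called higher (2.1, SE 0.20, adjusted p = 0.0027). The control mean of Gsta2 was 0.789 FPKM, so it passed the filter through Snf5 CKO alone and had to differ.

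**Figure D3:**
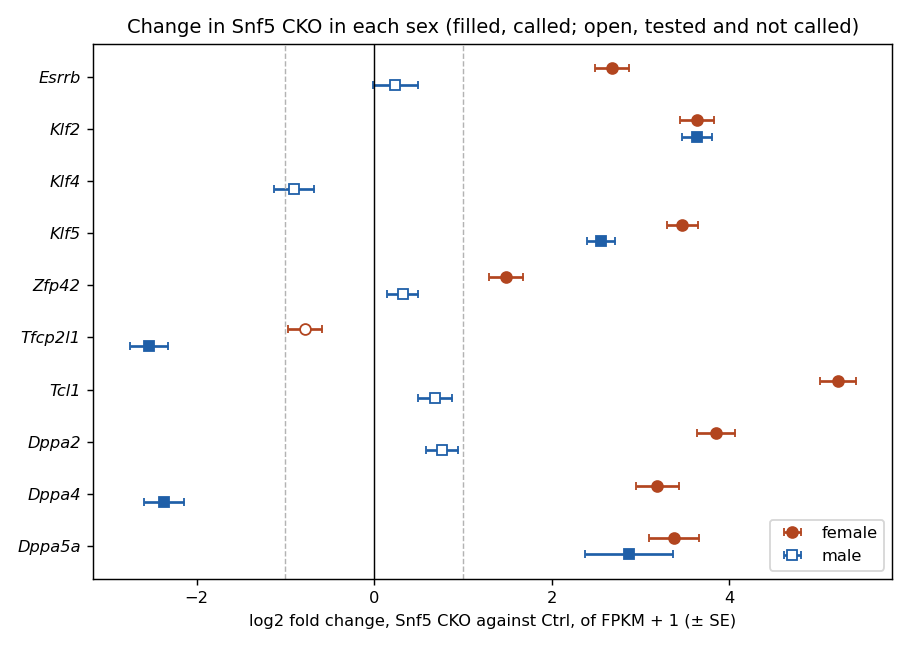
Log2 fold change of FPKM + 1 between Snf5 CKO and control for each gene, with circles for females, squares for males, filled symbols for called genes, open symbols for tested genes that were not called, and bars of ± SE. Klf2 has the same value of 3.64 in both sexes, Dppa4 has 3.19 in females and -2.37 in males, and Klf4 is shown for males alone.

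By the tested difference between the sexes, the 9 genes tested in both fall into 3 kinds. Klf2, Klf5 and Dppa5a were called higher in both sexes, and their differences were not called. Esrrb, Zfp42, Tcl1 and Dppa2 were called higher in females, were not called in males, and differed between the sexes. Tfcp2l1 and Dppa4 were called lower in males and differed too, with Dppa4 called higher in females, and Klf4 was not tested between the sexes. Rescaling the libraries shifted the median of all genes by 0.16 in females and 0.15 in males with a median of ratios and by -0.19 in males with a common sum, and the latter moved the median difference between the sexes by 0.19. With a common sum the Zfp42 difference was 1.39 but no longer called because of its adjusted p, and Klf4 was called lower in males (-1.14). A common sum also changed the genes tested and the weight of the pseudocount, and these were not separated.

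The neighbours of the 10 genes were compared as well. Over the nearest tested gene on each side, 18 neighbours that are not themselves among the 10 were compared in each sex, of which 4 were called higher and 5 lower in females, and 3 higher and 5 lower in males. The shares of all tested genes were 17.2% higher and 21.8% lower in females and 14.3% and 17.5% in males, so these counts show nothing particular to neighbours. A neighbour was called in the same direction as its gene in 3 pairs in females and 3 in males. In females these were Morc1 beside Dppa2, and Gsta4 and Ooep on both sides of Dppa5a. In males they were Ooep and Gsta2 beside Dppa5a, the latter with the limit of the filter given above, and Clasp1 beside Tfcp2l1 (-1.37, SE 0.40, adjusted p = 0.041). For Tcl1 the right neighbour moved the other way, Atg2b in females at -1.85 (SE 0.23, adjusted p = 0.00071), and Gskip, the right neighbour in males, was called lower (-1.50). For Esrrb both female neighbours moved against it, Gpatch2l at -1.11 and Angel1 at -1.86. Klf2 had a lower left neighbour in females (Ap1m1, -1.25) and none called in males, where Ap1m1 was at -0.25 and Eps15l1 at 0.20. Beside Tfcp2l1 lay Ralb in the female table (2.02) and Inhbb in the male table (1.70), both called higher, and the nearest to Klf5 were Dis3 and, at 2320 kb, Commd6 in females, neither called, and Klf12 at 555.6 kb in males, called lower. Zfp42 had Frg1 at 1877 kb and Fat1 at 1643 kb in females, neither called, and Triml2 in males, called lower at -2.06. Nearest to Klf4 on the right, at 1217 kb, Fam206a was called lower in females at -1.99 and Rad23b on the left was called in neither sex, and Glrx5 beside Tcl1 was called in neither sex.

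**Figure D4:**
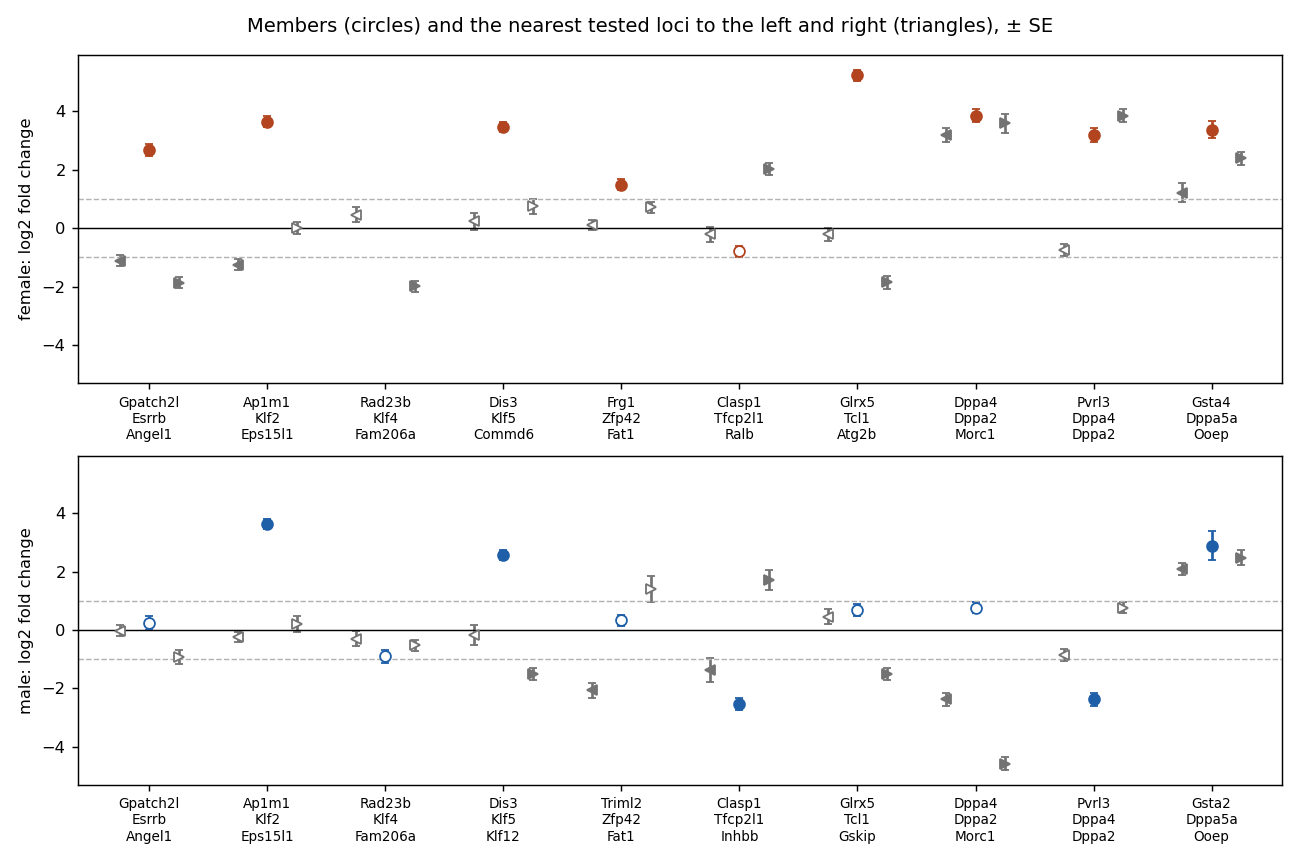
Log2 fold change of FPKM + 1 with ± SE for each gene (circle) and the nearest tested locus to its left and right (triangles) in females (top) and males (bottom), with filled symbols for called loci. Morc1, to the right of Dppa2, is at 3.59 in females and -4.57 in males.

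Genes with the pattern most like these were sought among 10463 genes tested in both tables, by the distance over 8 libraries between log2(FPKM + 1) centred within each table and the mean of the same over the 9 members tested in both. Among the closest were Abhd11 (distance 0.147), Tpd52 (0.237), Six4 (0.282) and Ccnd3 (0.315). The members themselves lay farther from their mean, between 0.640 for Esrrb and 4.92 for Tfcp2l1. Abhd11, a mitochondrial hydrolase gene, was at 8.19 and 10.7 FPKM in control females against 80.8 and 82.4 FPKM with Snf5 CKO, and at 27.8 and 31.8 FPKM in control males against 48.4 and 51.3 FPKM. Its log2 fold changes of 3.0 in females and 0.73 in males follow from the choice of genes by this pattern and are a description only.

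The network was widened with lists of related genes, each described by its counts and median, beside the 17.2% higher and 21.8% lower of all tested female genes and the 14.3% and 17.5% of male genes. As for Esrrb and Dppa2, a gene with a mean under 1 FPKM in either group passed the filter through the other group and had to differ. Among the called genes named from these lists this holds for Nanog, Prdm14, L1td1, Etv4, Klf6, Klf15, Grhl3 and Khdc1a in females and for Gbx2, Sox3, Klf12 and Grhl2 in males, so the counts and medians are no support for a change of a list, and the same limit holds where these genes are compared between the sexes. Of 12 other naive pluripotency genes, 7 of the 8 tested were called higher and 1 lower in females, with a median of 3.43 against -0.14 for all tested genes. In males 5 of 9 tested were called higher and 1 lower, with a median of 1.81 against -0.07. Nanog, the homeodomain factor at the centre of the network, was at 0.575 and 0.931 FPKM in the female controls and at 43.9 and 49.7 FPKM in female Snf5 CKO (4.77, SE 0.20, adjusted p = 0.00011). In males Nanog was at 12.1 and 13.3 FPKM in controls and at 60.4 and 61.4 FPKM in Snf5 CKO (2.18, SE 0.16, adjusted p = 0.0022). It was thus higher in Snf5 CKO of both sexes, as were Tdh, which encodes a threonine dehydrogenase (3.74 in females and 2.79 in males), Prdm14 (3.13 and 1.81) and L1td1 (1.22 and 2.29), and Gbx2, named after its values were seen as the remaining male call (2.41 and 2.64). Nanog (2.60, SE 0.23, adjusted p = 0.00037) and Prdm14 (1.32, SE 0.27, adjusted p = 0.0069) had a higher effect in females, and L1td1 a lower one (-1.08, SE 0.27, adjusted p = 0.015). Dppa3 and Sall4, the latter also on the germ cell list, were called in females at 4.89 and 3.80 and not in males at 0.47 and -0.09, and differed by 4.42 (SE 0.40, adjusted p = 0.00038) and 3.89 (SE 0.31, adjusted p = 0.00029), like Esrrb and Tcl1. Fbxo15, a target of OCT4 and SOX2, was called lower in both sexes (-1.56 and -1.26), so the list did not move in a single direction.

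LIF signalling feeds Klf4 and Tfcp2l1 through STAT3. Of its 10 genes, 7 were tested in each sex, with 1 called higher and 2 lower in females (median -0.02) and 0 called higher and 2 lower in males (median -0.66). At an unadjusted p under 0.05 the limma fit also gave 0 higher in males. The kinase gene Jak1 was called lower in females (-1.30) and in males (-1.19). Stat3 was called lower in females (-1.44) and not in males (-0.62), and the effects did not differ by the test (-0.82, SE 0.38, adjusted p = 0.12). The receptor gene Lifr was called lower in males (-1.36) and differed between the sexes by 1.36 (SE 0.22, adjusted p = 0.0024). Pim1, a kinase gene induced by STAT3, was the female gene called higher, at 2.01, and differed from males by 1.38 (SE 0.365, adjusted p = 0.018).

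The formative and primed states follow naive pluripotency in the embryo. Of 13 genes of these states, 7 of 9 tested were called higher and 0 lower in females (median 2.16; also 0 lower at an unadjusted p under 0.05 in limma), and in males 5 of 10 tested were called higher and 2 lower (median 0.86). Etv5 was called higher in both sexes (3.03 and 1.30), as was Dnmt3b (2.12 and 2.1), and Lef1 in females (2.16). Etv5 (1.74, adjusted p = 0.0049), Lef1 (2.25, adjusted p = 0.0015) and Etv4, named after its values were seen (2.63, adjusted p = 0.00041), had a higher effect in females by the test of the difference. Otx2 was listed at 0 in all female libraries, and in males it was at 2.52 and 2.84 FPKM in controls and at 12.8 and 14.5 FPKM in Snf5 CKO (1.99, SE 0.19, adjusted p = 0.0027). Tcf7l1, a repressor of Esrrb, Klf2 and Tfcp2l1 in stem cells that is named after its values were seen, was called higher in females (2.76) and in males (2.54), and the difference was not called (0.22, adjusted p = 0.58). Tcf15 was called higher in females (1.07) and lower in males (-2.93), which differed by 4.0 (SE 0.48, adjusted p = 0.00088), and Sox3 was called lower in males (-1.41).

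Genes of the 2-cell stage that DPPA2 and DPPA4 act on in stem cells were near 0. Of 16 genes, 14 have an entry in the female table and 15 in the male table, Duxf3 being absent from both and Zscan4e from the female table, and 0 passed the filter in either sex. Dux was at 0.147 and 0.116 FPKM in the female controls and at 0.0592 and 0 FPKM in female Snf5 CKO, while Dppa2 and Dppa4 were called higher there. The highest value of the list in any female library was 0.185 FPKM, and in males it was 1.04 FPKM, both for Usp17le. Male Snf5 CKO replicate 2 stood apart from replicate 1, with Zscan4d at 0.574 FPKM and Gm20767 at 0.562 FPKM where replicate 1 had 0 for both, genes named after their values were seen.

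Relatives of the 10 genes were compared to see whether whole families moved. Of 14 other Krüppel-like factor genes, 6 of 10 tested were called higher and 1 lower in females (median 1.04), and in males 0 of 9 were called higher and 1 lower (median -0.22), with 1 higher and 2 lower at an unadjusted p under 0.05 in limma. Of the 6 called higher in females, the most abundant were Klf8 (1.06), Klf13 (1.02), Klf3 (1.59) and Klf16 (1.28). The others, named after their values were seen, were Klf6 (2.05), the largest change of the list, and Klf1 (1.5), whose entry is merged with Dnase2a. Klf15 was called lower (-1.0), and these changes were all smaller in size than the changes of Klf2 and Klf5. Klf6 (2.17, adjusted p = 0.00073), Klf3 (1.83, adjusted p = 0.0015), Klf16 (1.48, adjusted p = 0.0020) and Klf8 (1.48, adjusted p = 0.0069) had a higher effect in females by the test of the difference, and so did Klf7 (1.64, adjusted p = 0.0036), also named after its values were seen and called in neither sex alone. In males Klf12 was called lower (-1.50). Of 21 other paralogues, 10 were tested in females, with 4 called higher and 3 lower (median 0.31), and 12 in males, with 1 called higher and 4 lower (median -0.29). Ooep was the gene of this list called higher in both sexes. The grainyhead genes related to Tfcp2l1 included Grhl3, at 0.191 and 0.229 FPKM in the female controls against 17.5 and 17.9 FPKM in Snf5 CKO, and at 17.3 and 14.6 FPKM in the male controls against 3.58 and 4.01 FPKM in Snf5 CKO. Its log2 fold changes of 3.95 and -1.82 were called in both sexes and differed by 5.77 (SE 0.23, adjusted p = 0.00019), but its female direction is fixed by the filter, as its female control mean was 0.210 FPKM. Grhl1 was called higher in females (1.18) and lower in males (-1.03), a difference of 2.21 (SE 0.30, adjusted p = 0.0013), while Grhl2 was called lower in males (-2.76) and Tfcp2 lower in females (-1.73). Khdc1a, of the family of Dppa5a, was called higher in females (1.62) and lower in males (-2.93), a difference of 4.55 (SE 0.40, adjusted p = 0.00035), and its female direction is fixed in the same way. In females the entry of Mtcp1, a relative of Tcl1 merged with Cmc4, was called lower (-1.13), as was that of Yy2, a relative of Zfp42 merged with Mbtps2 (-1.29). The Tcl1b genes, which lie in the cluster of Tcl1, were at 0 in all female libraries.

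**Figure D5:**
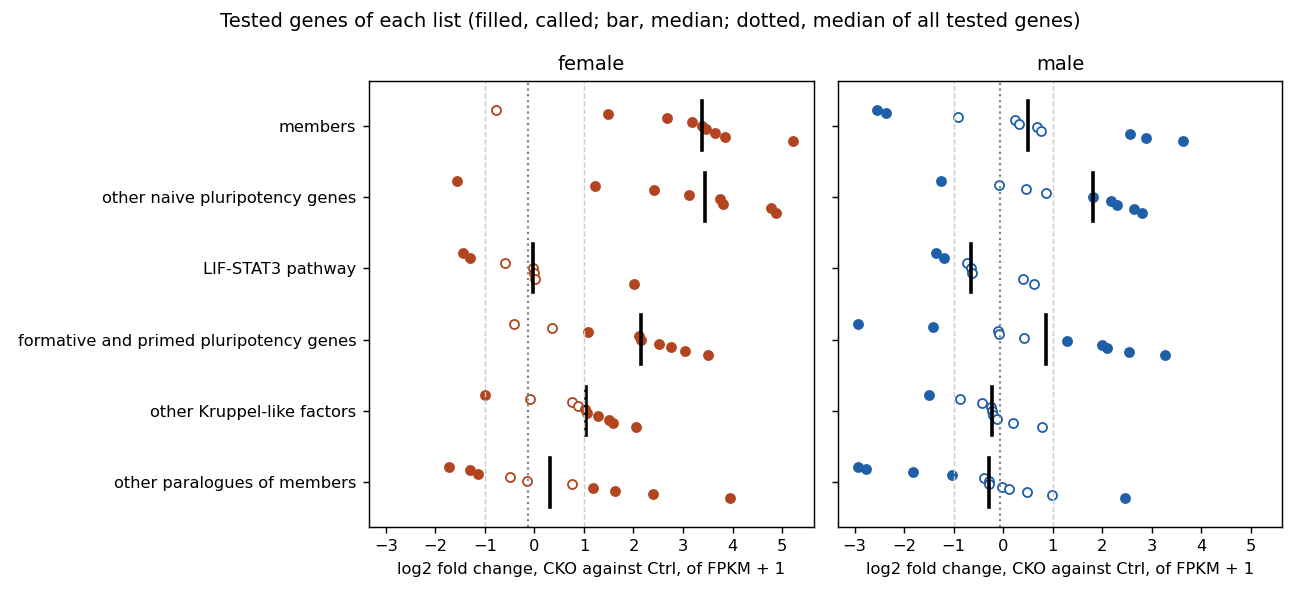
Log2 fold change of FPKM + 1 of the tested genes in each list for females (left) and males (right), with filled points for called genes, a black bar at the list's median, a dotted line at the median of all tested genes and dashed lines at the fold threshold. The medians of the 10 genes are 3.38 in females and 0.50 in males, and those of the other naive genes 3.43 and 1.81.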

How the data were processed

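RNA-Seq libraries of sorted E15.5 germ cells were used, 2 for each of 4 groups, as named by the labels and the column names. The authors mapped reads to mm10 and deposited a table per sex with FPKM values for 29018 female and 30216 male loci, and the submitters' notes name TopHat2 2.2.1 and Cuffdiff 2.1.1, while the study's methods give other versions of these tools. The version of the gene annotation is not stated. The confidence bounds (16 columns) were left aside, and 1 was added to every printed start. Counts are missing from the tables and total depth is therefore unknown. Estimated from loci under 0.1 FPKM and set to 1 in each sex's first control, depth was 1.91, 1.24 and 2.46 for female control replicate 2 and Snf5 CKO replicates 1 and 2, and 0.959, 1.19 and 1.45 for the male libraries in that order, with 0.953, 0.616 and 1.23 as the next best female values and 1.92, 2.38 and 0.742 as the next best male values.

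Loci without a gene name were left out. They held 36.7% and 35.3% of the summed FPKM in female controls and 9.94% and 28.2% in female Snf5 CKO. In males they held 6.56% and 42.1% in controls and 5.46% and 35.4% in Snf5 CKO. The 10 most abundant named loci held 26.0% of the named FPKM in male Snf5 CKO replicate 2 and 14.9% in replicate 1. Each sex was fitted with limma 3.58.1 in R 4.3.3 on log2(FPKM + 1), with eBayes and a trend, for named loci with a mean of at least 1 FPKM, and p-values were adjusted over all of them. Moderation added 4.69 degrees of freedom in females, 3.03 in males and 3.40 in the joint fit of 8 libraries that tested the difference between the sexes. The code was tested on simulated data. Tables and figures were made with pandas 2.3.3 and numpy 2.4.6 in Python 3.11.15 and with matplotlib 3.10.9.

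Replicates of equal number were taken as a possible shared batch, because the raw files of each number are named in a style of their own and the male columns call the numbers experiments. The study's methods name different sequencers and read lengths without assigning them to libraries. Across genes, which are not independent replicates, the replicate 2 minus replicate 1 deviations of control correlated with those of Snf5 CKO at 0.504 in females and 0.595 in males.

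The genes named are the 10 members, Smarcb1, Pou5f1, at most 4 called genes in each direction and sex from each of 6 lists of related genes by highest mean FPKM, those without an entry, the nearest tested locus on each side of a member, and the 5 genes most like the members, except that some genes this rule gives are not analysed here. The marker lists are those of germ, Sertoli, pre-granulosa, Leydig, stromal, endothelial and blood cells. Members and lists were chosen with earlier results of these data known. Alternatives were a pseudocount of 0.1, no filter, libraries rescaled to a common sum over named genes or by a median of ratios, no moderation, no trend, the replicate block, all entries of a gene summed, only loci with status OK, and each library left out in turn.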

Additional observations from a re-analysis of the deposited data

Results flagged for a closer look

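The change between control and Snf5 CKO differed between the sexes, by the limma test of that difference, for 6 of the 9 members tested in both. For Esrrb and Dppa2 among them, and for Nanog, Prdm14, L1td1, Etv4, Klf6, Grhl3 and Khdc1a below, the female control mean was under 1 FPKM, so they passed the filter through Snf5 CKO and the sign of their female change was fixed by it. As female minus male log2 fold change, the difference was 5.56 for Dppa4, 4.55 for Tcl1, 3.08 for Dppa2, 2.44 for Esrrb, 1.76 for Tfcp2l1 and 1.16 for Zfp42. Dppa4 had called changes of opposite sign in the sexes, and Tfcp2l1 was lower in Snf5 CKO of both but called in males only. The same test gave 1.41 for Smarcb1, whose decrease was larger in males, and 3.99 for Pou5f1.

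Among the nearest tested genes on either side of the members, the difference was 8.17 for Morc1, which was called in opposite directions, 1.88 for Frg1, 1.28 for Gskip, -1.09 for Gpatch2l and -1.46 for Fam206a. In the list of other naive genes it was 4.42 for Dppa3, 3.89 for Sall4, 2.60 for Nanog, 1.32 for Prdm14 and -1.08 for L1td1. LIF pathway genes had 1.38 for Pim1 and 1.36 for Lifr, and formative or primed genes 4.0 for Tcf15, 2.25 for Lef1 and 1.74 for Etv5. Other Krüppel-like factors had 1.83 for Klf3, 1.48 for Klf16 and 1.48 for Klf8. Paralogues had 5.77 for Grhl3, 4.55 for Khdc1a, 2.21 for Grhl1, -1.0 for Yy2 and -1.45 for Tfcp2. Genes of these lists were named by their level among the called genes, and other genes of the lists had called differences too: 2.63 for Etv4, 2.17 for Klf6, 1.64 for Klf7, 1.16 for Esrra and -1.15 for Yy1, named after their values were seen. A positive value is a more positive change in females.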

How the results depend on the processing

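The log2 fold changes of the members, Smarcb1 and Pou5f1 kept their direction and their side of the threshold in 297 of 306 cases where no library was left out, and in 169 of 180 cases where 1 was, when the lone sample of a group is assumed to vary like the other groups. With a library left out the male change of Esrrb ranged from -0.0115 to 0.49, and the difference between the sexes for Klf2 from -0.17 to 0.18, neither of them called. Without moderation, the calls over all genes were 866 higher and 1055 lower in females and 279 higher and 370 lower in males, and of the members 7 in place of 8 were called higher in females, and 2 in place of 3 higher and 1 in place of 2 lower in males. Without the filter, 1083 genes were called higher in males. Scaling to a common sum over named genes also changed the number of genes tested (12914 in males, 11006 for the difference) and the weight of the pseudocount. These choices were not separated. In that setting 1020 genes had a lower effect in females by the test of the difference, and the share of calls that were higher was 33.8% in males and 63.1% for the difference, against 45.1% and 48.4%. With a median of ratios that share was 54.5% in males (2131 higher and 1781 lower) and 52.9% in females (2343 and 2086), against 45.1% and 44.05%, so the larger number turned from lower to higher. The cause was not tested. With the replicate block, 8 members were called higher in females, 3 higher and 2 lower in males and 6 higher for the difference, with 2019 higher and 2555 lower over all female genes and 1861 and 2238 over all male genes.

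There are 2 libraries a group, so the spread within a group is poorly known and borrowed from other genes. The tables give no counts, so the precision of values near 1 FPKM, as for Klf4 in both sexes, Esrrb and Dppa2 in female controls and Tfcp2l1 in male Snf5 CKO, is not known. The replicate number, the cell mixture of the controls and the cells that kept Snf5 were not separated from the genotype beyond the replicate block. Fragments from overlapping genes or from pseudogenes of Dppa5a could not be told apart from those of the members.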
